A study of Mus musculus with 24 samples.

Results

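The comparison of palmitate with its albumin carrier was described here across the transcriptome of AML-12 cells, an established line of mouse hepatocytes. AML-12 comes from a mouse that carried a human TGFA transgene, the gene of an EGF receptor ligand, so these cells limit what can be read about growth factor signals. The members were the 8 libraries of untransfected cells, chosen by their labels among the 24 libraries of the series. BSA cells (4 libraries) received bovine serum albumin alone and PAL cells (4 libraries) received 0.25 mM palmitate on albumin. Palmitate is a saturated fatty acid that is used on hepatocytes to model steatosis. Cells were collected 48 hours after palmitate was added, and no cell of either group received an esiRNA, the small interfering RNA used in the rest of the series. The study describes the steatosis medium as free of dexamethasone, a synthetic glucocorticoid, and as holding charcoal-treated serum. Whether BSA cells were kept in that medium or in the usual one with dexamethasone and untreated serum is not given in the sources used here. BSA libraries were in rows A to D of the library plate and PAL libraries in rows E to H of the same column, so that row position and palmitate cannot be told apart. The labels do not say whether replicates were separate cultures, and p-values measure only the spread between these libraries.

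Expression was measured by BRB-seq, which barcodes bulk RNA early and sequences the 3′ end of each mRNA. Total gene counts were 5399700 to 9714715 per library, and every pair of replicates differed by more than counting noise. Transcripts of the mitochondrial genome made up 3.95% ± 0.25 of the gene counts in BSA and 3.48% ± 0.0508 in PAL, and ribosomal protein transcripts 12.8% ± 0.108 and 13.6% ± 0.349 (SD, n = 4; 2-sided exact permutation p = 0.0286 for each, the smallest that 4 against 4 can give). Hepatocyte transcripts were present, with *Alb* at 208 ± 39.2, *Trf* at 9315 ± 625, *Ttr* at 1453 ± 183 and *Hnf4a* at 1229.5 ± 55.7 normalized counts in BSA (SD, n = 4). *Apoa1* was low (10.2 ± 3.003 in BSA), and the cholangiocyte markers *Krt19* (2071 ± 266) and *Sox9* (1765 ± 128) were present. Of 40 secreted hepatocyte proteins listed, 17 had too few counts to be tested, with at most 5 raw counts of each in any of the 8 libraries. Defining markers of macrophages, stellate and endothelial cells were near 0, with at most 5 raw counts of *Ptprc*, 1 of *Pecam1* and 0 of *Adgre1* and *Col1a2* in any of the 8 libraries.

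Hepatocytes take up fatty acids, esterify them into triglyceride stored in lipid droplets, oxidize them in mitochondria and peroxisomes, and export lipid on lipoproteins. They also secrete most plasma proteins, among them the acute phase proteins and complement components, whose genes respond to NF-kB, STAT3 and C/EBP factors. Cholesterol synthesis is set by SREBP2, which is activated when membrane sterol is low, and sterol efflux by LXR, which is activated by oxysterols.

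DESeq2's Wald test gave an adjusted p (*Padj*) for 12578 of the 12827 genes fitted. A gene with *Padj* under 0.1 is called here, and is said to have risen or fallen. In PAL, 853 genes rose (6.78% of the genes tested) and 975 fell (7.75%), together 14.5%. The libraries of the groups did not overlap for 1943 genes (15.4%), with PAL above BSA for 7.35% and below for 8.1%. Most of the changes were small. Over the tested genes the log2 fold change had a median of 0.01, 73.5% of the called genes differed by less than 1.5 fold, and 44 genes rose (0.35%) and 169 fell (1.34%) by at least 2 fold. In bulk RNA, fewer cells of a kind and less RNA per cell cannot be told apart. Gene lists are described below by how many tested members rose and fell and by the median log2 fold change of those tested, to be read against these shares over all genes. The lists were written with earlier results of these data known, so their shares describe the members and are not tests. Beside a count that moved by more than 1.5 times when 1 library was left out, the count without that library is given, except that counts of 0 and 1 in the lesser direction moved by at most 1.

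**Figure D1:**
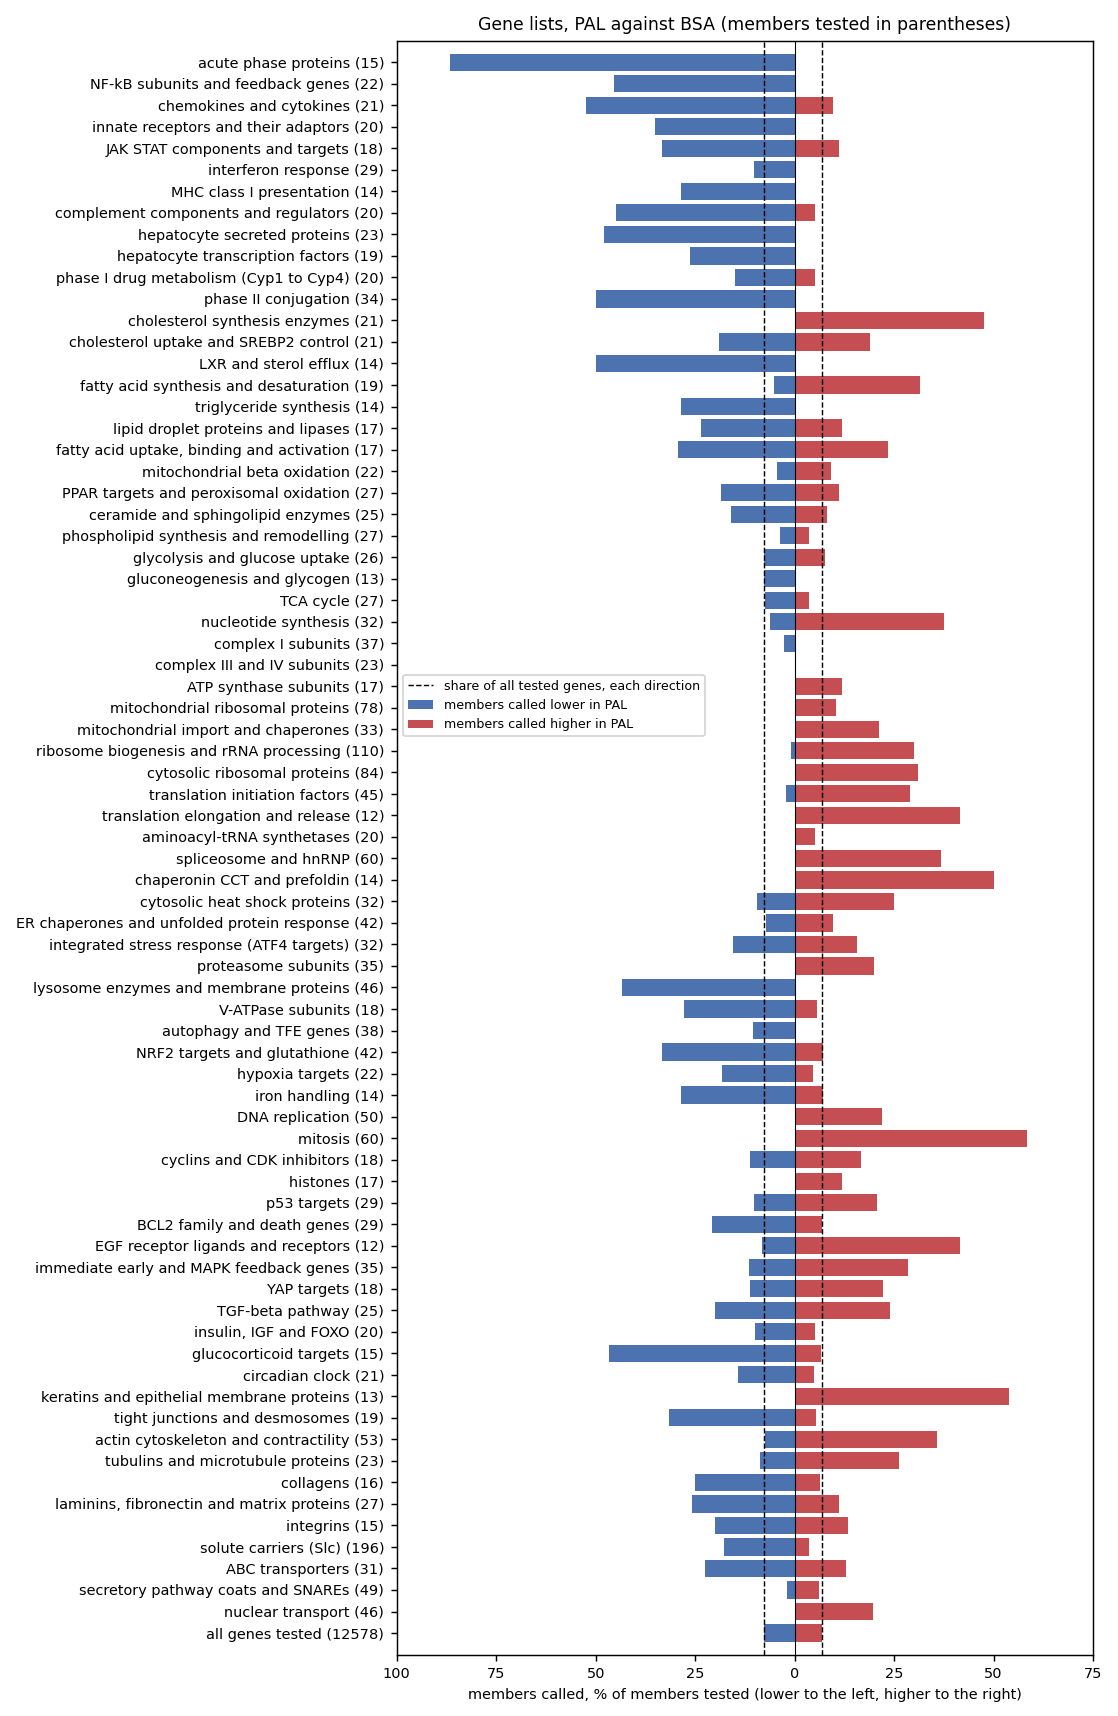
Share of tested members of each gene list called lower (blue, to the left) or higher (red, to the right) in PAL against BSA, in percent, with the number tested in parentheses and dashed lines at the shares over all tested genes (7.75% lower and 6.78% higher). Acute phase proteins reach furthest to the left and mitosis genes furthest to the right.

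Genes of inflammation were among those that fell most, and promoter stretches of chemokine and NF-kB genes that fell are shown first. Sequence from 250 bases before to 50 after the transcription start, taken from RefSeq on GRCm38.p6, was found for 7 of the 11 chemokine and cytokine genes that fell. The NF-kB consensus, the site bound by NF-kB dimers, occurred on either strand in 6 of the 7, against 13.4% of the 759 windows of all genes that fell, 10.1% of 9531 tested genes with such a window and 8.18% of 27025 promoters in all. For NF-kB subunits and feedback genes that fell it occurred in 4 of 7 windows, and for acute phase genes that fell in 0 of 10. The AP-1 site TGANTCA, bound by FOS and JUN proteins and searched on both strands, occurred in 4 of those 10, in 3 of the 7 windows of NF-kB subunits and feedback genes and in 1 of the 7 of chemokines and cytokines. Over all genes that fell it occurred in 8.04% of windows, against 4.84% of the tested genes with a window and 7.93% of all promoters. The searches for the motifs were separate, and their overlaps were not removed. Further motifs were searched in these and other lists, and most of those counts are not given here. A match describes letters only. The share among members of these lists that did not fall was not counted, so a link of a motif to the fall was not tested. The stretches before the start are printed in the direction of the gene, with a match on either strand in capitals. One stretch a gene is shown, with the match farthest before the start, and further matches in these windows are not printed.
Cxcl1: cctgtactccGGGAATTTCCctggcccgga
Cxcl2: cctgagctcaGGGAATTTCCctggtccccg
Cxcl3: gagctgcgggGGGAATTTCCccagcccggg
Ccl20: aatcaatgggGGAAAACCCCgggtgagaac
Ccl9: tttgaactttGGAAAGCCCCaagtcacctt
Csf1: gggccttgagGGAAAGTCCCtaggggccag
Nfkb2: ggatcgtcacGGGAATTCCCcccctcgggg
Nfkbia: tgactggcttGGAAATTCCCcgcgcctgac
Nfkbie: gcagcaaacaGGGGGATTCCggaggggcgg
Tnfaip3: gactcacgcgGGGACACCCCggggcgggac

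Of these stretches 3 lie within a short region of chromosome 5, at chr5:90891164-90891193 for *Cxcl1*, chr5:90903792-90903821 for *Cxcl2* and chr5:90786018-90786047 for *Cxcl3*, all on the + strand. Their consensus starts 71, 97 and 73 bases before the transcription start and is the same 10 letters. The others lie at chr1:83116676-83116705 (+, *Ccl20*), chr11:83578652-83578681 (-, *Ccl9*), chr3:107760604-107760633 (-, *Csf1*), chr19:46304688-46304717 (+, *Nfkb2*), chr12:55492657-55492686 (-, *Nfkbia*), chr17:45555584-45555613 (+, *Nfkbie*) and chr10:19015516-19015545 (-, *Tnfaip3*).

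Acute phase proteins, which the liver secretes in inflammation, fell as a group. Of 27 list members 15 had enough counts to be tested, 13 of these fell, 0 rose, and the median log2 fold change was -0.92. *Saa3*, an inducible serum amyloid A protein of the mouse (chromosome 7, 46711998 to 46715700 on GRCm38), was at 7919, 7726, 8057 and 7527 normalized counts in BSA and 105, 116, 136 and 114 in PAL. The log2 fold change was -6.05 (SE 0.08), with a *Padj* too small for the software to hold, as for *Cxcl5* and *C3* below. *Lcn2*, lipocalin 2, which binds bacterial siderophores (chromosome 2, 32384633 to 32388252), was at 3226, 6019, 4496 and 3564 in BSA and 126, 168, 83.7 and 102 in PAL, a log2 fold change of -5.17 (SE 0.30, *Padj* = 3.06e-63). Every PAL library lay below every BSA library for both genes. *Orm1*, orosomucoid (-3.66, SE 0.32), and *Hp*, haptoglobin (-3.65, SE 0.33), fell from 105 ± 18.3 and 92.5 ± 11.4 normalized counts to 8.51 ± 2.76 and 7.46 ± 3.89 (SD, n = 4). The fibrinogen chain *Fgb* (-1.45), serum amyloid P component *Apcs* (-0.92), hemopexin *Hpx* (-0.53), the LPS-binding protein *Lbp* (-0.50) and ceruloplasmin *Cp* (-0.50) also fell. Of these, *Lbp* went from 4478 to 4897 normalized counts to 3044 to 3529. The systemic serum amyloid genes *Saa1* and *Saa2* had at most 5 raw counts in any library. *Saa3* has close relatives, and how reads shared among them were counted is not known.

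Chemokines and cytokines moved in the same direction with exceptions. Of 35 members 21 were tested, 11 fell and 2 rose, with a median of -0.61. *Cxcl5*, a neutrophil attractant (chromosome 5, 90759360 to 90761624), was at 10333, 9505, 9172 and 9314 in BSA and 898, 798, 951 and 827 in PAL (-3.47, SE 0.06). The related *Cxcl1* went from 613, 639, 600.4 and 663 to 154, 169, 125 and 153 (-2.06, SE 0.10, *Padj* = 4.57e-84). *Cxcl3* (-2.77) and *Cxcl2* (-2.62), their neighbours, fell from 85.2 ± 9.83 and 30.00 ± 6.91 to 12.2 ± 6.54 and 5.22 ± 3.80 (SD, n = 4). These 4 genes encode ligands of CXCR2 and are similar in sequence. The monocyte attractants *Ccl2* (11568 ± 566 to 4843 ± 354) and *Ccl7* (789 ± 53.2 to 312 ± 10.4) and the CCR6 ligand *Ccl20* (5992 ± 218 to 2406 ± 386; SD, n = 4) fell by 2.39, 2.53 and 2.49 fold. *Csf1*, the macrophage growth factor, fell (-0.61, SE 0.07). *Tnf*, *Il1b* and *Il6* had at most 1 raw count in any library. The members that rose were *Il11*, of the IL-6 family, at 481, 496, 434 and 318 in BSA and 889, 789.6, 643 and 825 in PAL (0.86, SE 0.12, *Padj* = 2.18e-11), and *Il33*, an alarmin (0.51, SE 0.11, *Padj* = 0.000139). *Cxcl10*, an interferon-induced chemokine, was at 18.1 ± 5.66 and 19.95 ± 4.32 and was not called (*Padj* = 0.907).

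Among subunits of NF-kB and the inhibitors it induces, 10 of 22 fell and 0 rose (median -0.29). The inhibitors *Nfkbie* (-0.81, SE 0.14) and *Nfkbia* (-0.58, SE 0.10), the kinase *Ikbke* (-0.70) and the ubiquitin-editing enzyme *Tnfaip3* (-0.33) fell. *Nfkbia* was at 500.3, 594, 481 and 573 in BSA and 349, 369.8, 337 and 372 in PAL, without overlap. *Nfkb1* (-0.33), *Relb* (-0.30) and *Nfkb2* (-0.21) fell by small amounts, and *Rela* (-0.06, *Padj* = 0.636) and *Bcl3* (0.02, *Padj* = 0.923) were not called. The count of falls was 6 without BSA replicate 1. The calls of *Nfkb2* and *Relb* were lost in 5 and 3 of 15 alternative settings, which are other tests, filters and fits and the 8 fits that each leave out a library. Of innate receptors and adaptors, 7 of 20 fell, among them *Il6ra* (-1.21), the IL-6 receptor, and *Cd14* (-0.54), the LPS co-receptor. This count was 4 without BSA replicate 3 or PAL replicate 2 and 3 without BSA replicate 4. *Socs3* (-0.40), *Cish* (-0.72) and *Stat3* (-0.34), of cytokine signalling through STAT factors, fell, within a list where 6 of 18 fell. That count was 3 without each of BSA replicates 2, 3 and 4 and PAL replicate 3. *Socs2* (0.28, SE 0.09) and *Pim3* (0.19, SE 0.07), feedback genes, rose, with calls lost in 1 (without BSA replicate 1) and 10 of the 15 alternatives.

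Of complement genes, 9 of 20 fell and 1 rose (median -0.60). *C3*, the central component (chromosome 17, 57203970 to 57228136), was at 6188, 6242, 6445 and 6129 in BSA and 1064, 1086, 972 and 1032 in PAL (-2.59, SE 0.05). The alternative pathway protease *Cfb* (-1.06, SE 0.10) and the classical pathway protease *C1ra* (-2.31, SE 0.41) fell. Clusterin, *Clu*, which limits the terminal complex and is also a chaperone, rose by 0.30 (SE 0.07), with an overlap between groups (48579.9 to 62476 in BSA and 62397 to 75782 in PAL). *Cybb*, the catalytic NADPH oxidase subunit known from phagocytes (chromosome X, 9435252 to 9487771), was at 476, 513, 556 and 489 in BSA and 25.6, 21.5, 24.99 and 25.7 in PAL (-4.38, SE 0.17, *Padj* = 4.50e-135), while its partner *Cyba* changed by -0.40 (SE 0.09, *Padj* = 0.000209). The 15 macrophage markers summed to 1.93 to 3.30 CPM (counts scaled to a common library total) in BSA and 2.21 to 3.24 CPM in PAL. The 13 stellate cell and fibroblast markers summed to 0.797 to 3.68 CPM in BSA and 0.394 to 1.18 CPM in PAL. Of these 2 were tested and 1 fell, with few counts and with 0 falls in at least 1 of the alternative settings. Of MHC class I genes *H2-K1* (-0.53) and *Tapbp* (-0.53) fell and *B2m* (-0.08, *Padj* = 0.271) was not called. Of interferon response genes 3 of 29 fell, and 1 without BSA replicates 2 or 3 or PAL replicate 2. *Isg15* had 0 counts in all 8 libraries and *Irf7* was not called (-0.50, *Padj* = 0.642).

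**Figure D2:**
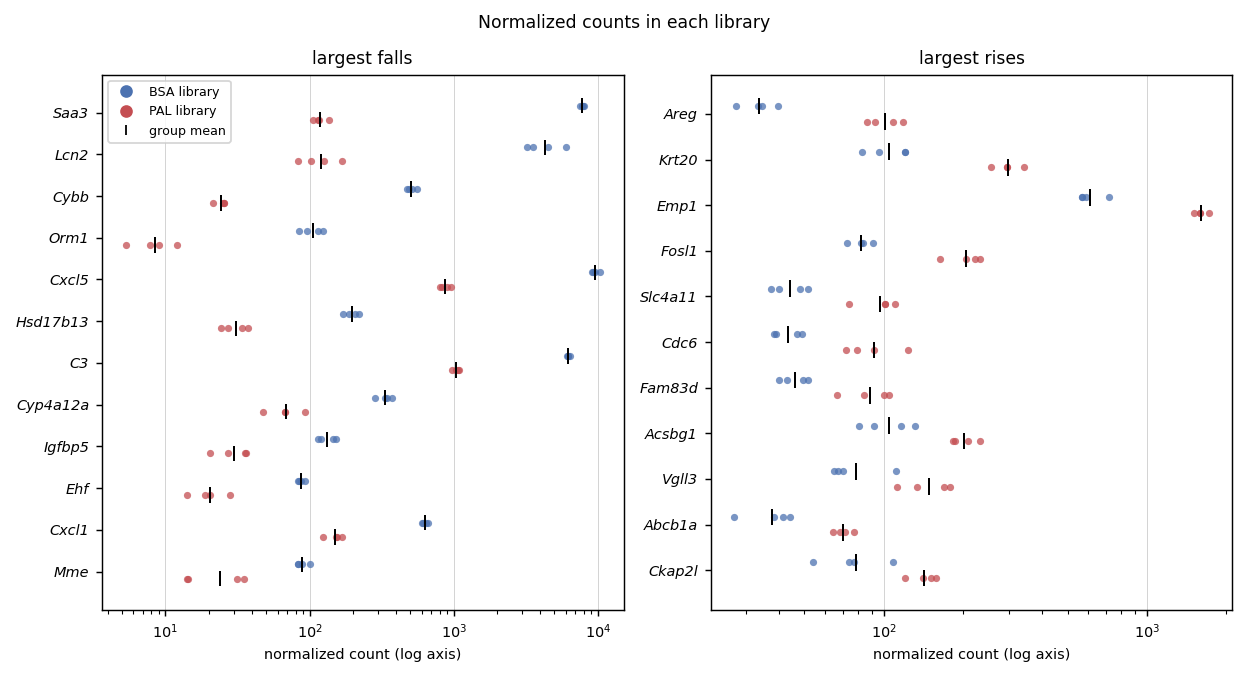
Normalized counts (log axis) in each BSA (blue) and PAL (red) library for genes among the 12 that fell most and the 12 that rose most, of those called without overlap and with 50 or more normalized counts on average, with bars at the group means. The falls span larger distances than the rises, and every PAL library of *Saa3* lies between 105 and 136 against 7527 to 8057 in BSA.

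Secreted hepatocyte proteins fell in 11 of 23 tested and rose in 0 (median -0.61). Albumin, *Alb*, was at 195, 174, 199 and 264 in BSA and 132, 113, 93.4 and 86.9 in PAL (-0.97, SE 0.16, *Padj* = 1.04e-07). *Apoe*, an apolipoprotein of remnant particles, went from 3581 ± 159 to 1888 ± 165 (-0.92, SE 0.07, *Padj* = 2.63e-41). Transferrin *Trf* (-0.58, SE 0.06), *Serpinf1*, the antiangiogenic factor PEDF (-1.67, SE 0.25), and transthyretin *Ttr* (-0.30, SE 0.09) fell. Of hepatocyte transcription factors, 5 of 19 fell and 0 rose. These were *Cebpd* (-0.95, SE 0.12), *Cebpb* (-0.70, SE 0.09), *Foxa3* (-0.73), *Prox1* (-0.67) and *Xbp1* (-0.49). *Cebpb*, which acts in the acute phase response, was at 2343, 2658, 2872 and 2774 in BSA and 1759, 1426, 1492 and 1885 in PAL. The identity factors *Hnf4a* (0.10, *Padj* = 0.353), *Foxa2* (-0.09, *Padj* = 0.534) and *Cebpa* (-0.42, *Padj* = 0.176) were not called. *Cebpa* was at 109.0 in PAL replicate 1 and at 64.6 to 68.4 in the other PAL libraries.

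Enzymes that conjugate drugs and reactive compounds fell in 17 of 34 tested and rose in 0 (median -0.41; 11 without PAL replicate 3). The sulfotransferases *Sult1a1* (-1.13, SE 0.17) and *Sult1c2* (-1.23, SE 0.23) and the glucuronosyltransferase *Ugt2b34* (-0.89) were among the falls. The glutathione transferases *Gsta4* (-0.79), *Gstm1* (-0.75) and *Gstp1* (-0.70), which also fell, belong to families with similar members. *Gstp1* was at 3800.2 to 4462 in BSA and 2502 to 2674 in PAL. Of cytochromes P450 of the drug-metabolizing families, 3 of 20 fell and 1 rose. *Cyp4a12a*, a fatty acid omega-hydroxylase (chromosome 4, 115299046 to 115332815), was at 347, 336, 284 and 373 in BSA and 67.96, 67.5, 47.8 and 92.97 in PAL (-2.25, SE 0.16), and *Cyp2s1* rose (0.57, SE 0.15). The falls of the P450 list were 1 without BSA replicate 4 or PAL replicate 3, and its rises 2 without BSA replicate 3. Bile acid genes fell in 5 of 8 and rose in 0, among them the uptake carrier *Slc10a2* (-0.75) and the export pumps *Abcc3* (-0.63) and *Abcc2* (-0.58, not called in 4 of the 15 alternatives). *Cyp7a1*, which starts the classical bile acid route, had 0 counts in all 8 libraries.

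Cholesterol synthesis enzymes rose in 10 of 21 tested and fell in 0, with a median of 0.36. *Sqle*, squalene epoxidase, was at 469.7, 404, 506 and 542 in BSA and 877, 739.7, 752 and 854 in PAL (0.75, SE 0.09, *Padj* = 2.41e-13). *Nsdhl* (0.82, SE 0.13), *Cyp51* (0.74, SE 0.11) and *Msmo1* (0.68, SE 0.09), which remodel lanosterol, rose without overlap between groups. The early enzyme *Hmgcs1* (0.36, SE 0.09) rose less in fold. *Stard4*, a sterol carrier, rose by 0.45 (SE 0.12). *Insig1* was not called (0.87, *Padj* = 0.170), and *Srebf2* rose by 0.18 (SE 0.06). In the list of uptake and SREBP2 control 4 of 21 rose (2 without PAL replicate 1) and 4 fell (2 without BSA replicate 1 or PAL replicates 2 or 4). The sterol element TCACNCCAC, searched on both strands, was found in 1 of the 6 promoter windows held for the enzymes that rose, against 1.07% of tested genes with a window. The NF-kB consensus and the AP-1 site were each found in 1 of the same 6 windows. Over all genes that rose the sterol element was in 0.447% of 671 windows. The sterol element starts 137 bases before the start of *Hmgcs1*, on the + strand of chr13:119690204-119690232, with the element in capitals.
Hmgcs1: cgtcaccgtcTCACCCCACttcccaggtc

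**Figure D3:**
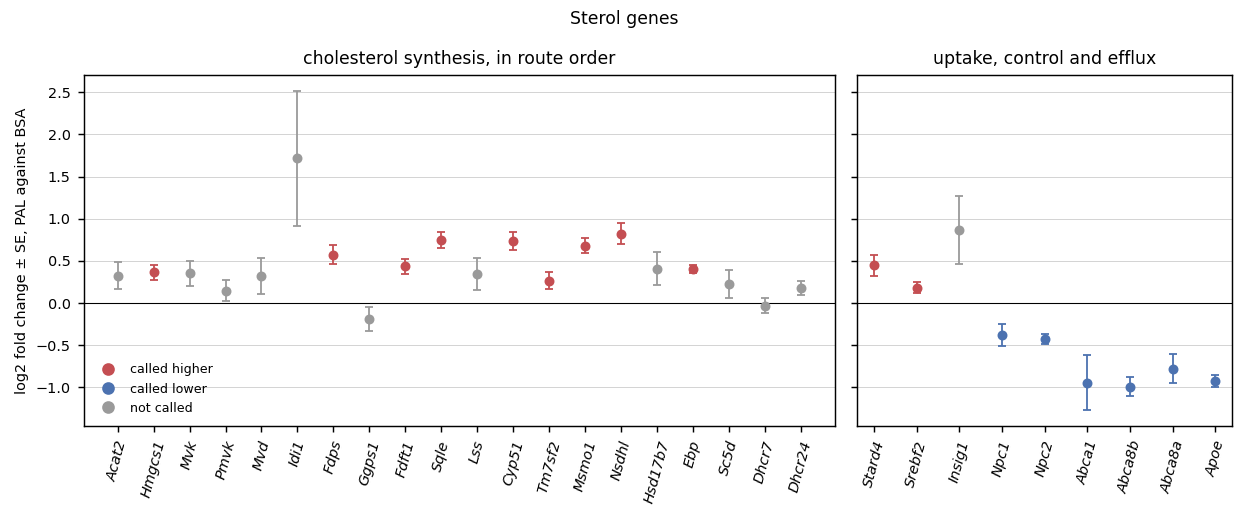
Log2 fold change ± SE of PAL against BSA (n = 4 per group) for enzymes of cholesterol synthesis in the order of the route and for genes of uptake, control and efflux (red, called higher; blue, called lower; grey, not called). The enzymes lie mostly above 0 and the efflux genes *Abca1*, *Abca8b* and *Apoe* near -1.

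Genes of sterol efflux and LXR fell in 7 of 14 and rose in 0 (median -0.26; 4 without BSA replicate 2). *Abca8b* (-0.99, SE 0.11) and *Abca8a* (-0.78, SE 0.17), transporters of the ABCA group, fell without overlap. *Abca1*, the pump that loads apolipoprotein A-I, was at 38.1, 57.9, 50.7 and 23.3 in BSA and 23.1, 26.4, 11.95 and 27.2 in PAL (-0.94, SE 0.33, *Padj* = 0.0394), with overlap. *Npc2* (3404 to 3889 in BSA and 2669.8 to 2795 in PAL; -0.42, SE 0.06) and *Npc1* (-0.38, SE 0.13), counted in the uptake list, release sterol from lysosomes and fell. *Abcg1* had 0 counts in all 8 libraries. The calls of *Abca1* and *Npc1* were each lost in 4 of the 15 alternative settings, and that of *Srebf2* in 5.

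In the list of fatty acid synthesis 6 of 19 tested rose and 1 fell, around a median of 0.05 (-0.02 without BSA replicate 3). The rises were the desaturases *Fads1*, *Fads2*, *Scd1* and *Scd2*, the elongase *Elovl6* and *Me1*, malic enzyme, which makes NADPH. *Fads2* changed by 0.70 (SE 0.09), *Scd2* by 0.44 (SE 0.05), *Me1* by 0.31 (SE 0.06) and *Elovl6*, which elongates palmitate to stearate, by 0.54 (SE 0.12, *Padj* = 0.000314). The call of *Scd1* was lost in 7 of the 15 alternatives. *Elovl6* was at 188, 148, 193 and 158 in BSA and 260.3, 245, 239 and 259 in PAL. The core synthesis genes were not called: *Fasn* -0.06 (*Padj* = 0.657), *Acaca* -0.12 (*Padj* = 0.557) and *Acly* 0.02 (*Padj* = 0.897). *Mlxipl*, which encodes the carbohydrate-responsive factor ChREBP, fell (-0.86, SE 0.27, *Padj* = 0.0173), with the call lost in 2 of the 15 alternatives, 1 of them without BSA replicate 3. Triglyceride genes fell in 4 of 14 and rose in 0. *Dgat2*, which makes the last acylation, was at 277, 265, 297 and 264 in BSA and 164, 125, 138 and 144 in PAL (-0.96, SE 0.12, *Padj* = 7.32e-13), while *Dgat1* was not called (-0.28, *Padj* = 0.314).

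*Plin2*, the droplet coat protein of hepatocytes, was at 2805, 2863, 2756 and 2590.1 in BSA and 3735, 3789, 3586 and 3265 in PAL (0.38, SE 0.06, *Padj* = 1.55e-08). *Hsd17b13*, a droplet enzyme linked to human liver disease (chromosome 5, 103955440 to 103977410), was at 171, 220.5, 208 and 188 in BSA and 37.2, 24.5, 27.2 and 34.01 in PAL (-2.68, SE 0.19, *Padj* = 2.30e-41). The lysosomal lipase *Lipa* (-0.52) and the lipase inhibitor *G0s2* (-0.43) fell, and *Pnpla2*, the main droplet lipase, was not called (-0.12, *Padj* = 0.540). *Plin4* had 0 raw counts and *Plin5* at most 7 in any library. In all 2 of 17 members rose and 4 fell, the rises being 1 without BSA replicates 1 or 2 or PAL replicates 1, 3 or 4.

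Mitochondrial beta oxidation showed 2 rises and 1 fall in 22 tested, near the share over all genes. *Cpt1a*, which admits long acyl chains to mitochondria, was at 1548, 1832, 1747 and 1623 in BSA and 2013, 2138, 2040.3 and 2047 in PAL (0.29, SE 0.06, *Padj* = 0.000182), *Acaa2* rose by 0.31 (SE 0.09) and *Acadvl* fell (-0.24, SE 0.07; not called without BSA replicate 1). Among PPAR targets and peroxisomal enzymes 3 of 27 rose and 5 fell, the falls being 3 without BSA replicate 4. *Acox2*, the peroxisomal oxidase of branched chains and bile acid intermediates, fell from 1546 ± 52.1 to 422 ± 30.2 (-1.87, SE 0.07, *Padj* = 2.45e-142), and *Vnn1* fell (-1.02, SE 0.11). The acyl-CoA thioesterases *Acot2* (0.80, SE 0.23) and *Acot1* (0.35, SE 0.06), similar genes, rose. *Angptl4* was not called (0.04, *Padj* = 0.887), *Pdk4* and *Ppara* had means under 10 in BSA and *Fgf21* had 0 counts. Of fatty acid activation genes *Acsl1* fell (-0.59, SE 0.15) and *Acsl3* rose (0.39, SE 0.13; not called without BSA replicate 2 or PAL replicate 1), with 4 rises and 5 falls in 17. The rises were 2 without BSA replicate 2. For ceramide synthesis, which uses palmitate, *Sptlc1* (-0.15, *Padj* = 0.313) and *Sptlc2* (-0.15, *Padj* = 0.266) were not called, *Sptssa* (-0.29) and *Degs1* (-0.27) fell, and *Cers2*, a ceramide synthase (0.19), and the ceramidase *Acer3* (0.19) rose. Of 25 members 2 rose (0 without PAL replicate 1 and 1 without BSA replicates 1 or 4 or PAL replicate 3) and 4 fell (2 without BSA replicates 1 or 2).

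In cell division 35 of 60 mitosis genes rose and 0 fell, with a median of 0.45, and 11 of 50 replication genes rose and 0 fell (median 0.20). *Top2a*, the topoisomerase of dividing cells, was at 427, 469.9, 504 and 568 in BSA and 637, 727, 743 and 839 in PAL (0.59, SE 0.10, *Padj* = 1.23e-07). The spindle genes *Ckap2l* (0.89, SE 0.19) and *Spc24* (0.70, SE 0.20) rose. *Ccnb1* (0.45, SE 0.12), *Mki67* (0.35, SE 0.11) and *Cdk1* (0.31, SE 0.10) rose. *Cdc6*, which licenses replication origins (chromosome 11, 98907801 to 98923940), was at 38.9, 46.7, 48.9 and 38.4 in BSA and 71.8, 79.2, 124 and 92.2 in PAL (1.08, SE 0.22, *Padj* = 3.20e-05). *Rrm2*, a subunit of ribonucleotide reductase (0.56), *Orc2* (0.59) and *Tyms* (0.50) rose, while *Mcm2* (0.16, *Padj* = 0.248) and *Pcna* (-0.04, *Padj* = 0.922) were not called. Cyclin D1, *Ccnd1*, which drives entry to S phase, was at 8612, 8565, 8902 and 7444 in BSA and 13666, 10536, 13884 and 12128 in PAL (0.58, SE 0.08, *Padj* = 8.86e-12), and *Myc* was not called (-0.03, *Padj* = 0.835). The calls of *Mki67* and *Cdk1* were each lost in 1 of the 15 alternative settings.

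**Figure D4:**
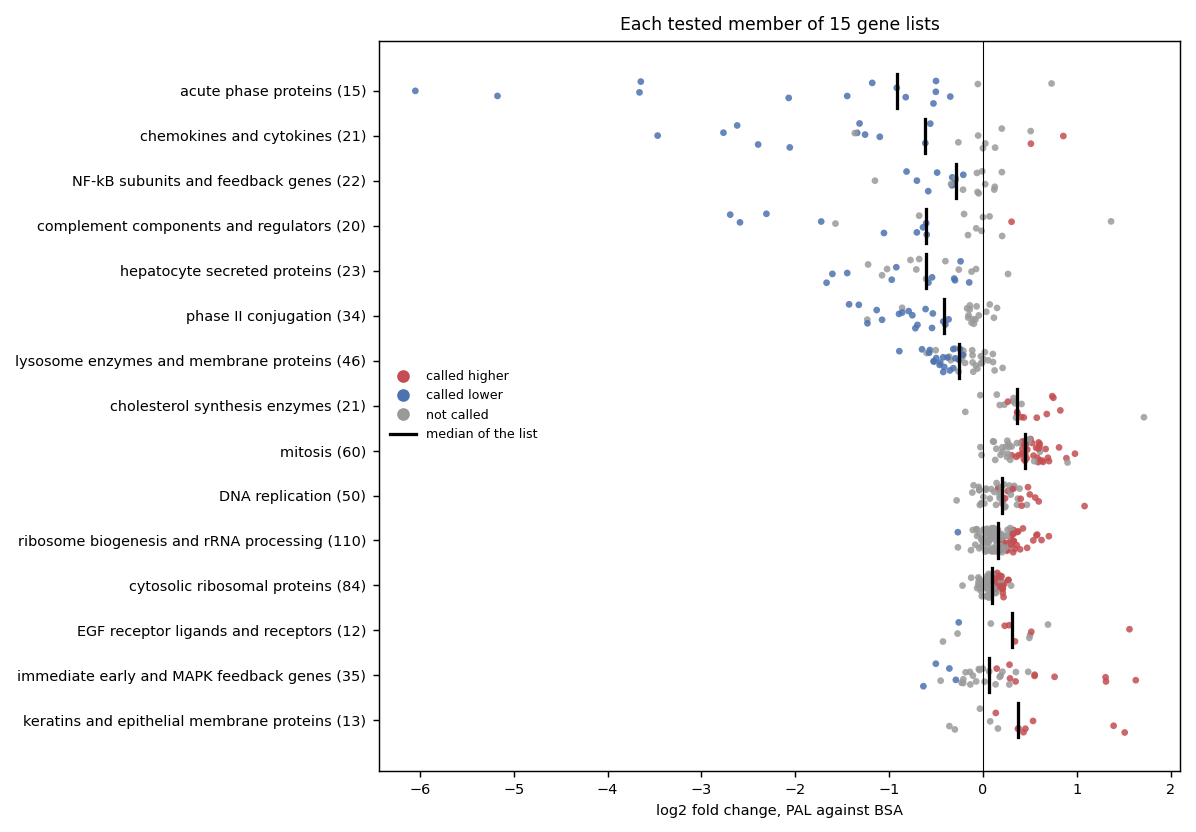
Log2 fold change of PAL against BSA for each tested member of 15 gene lists (red, called higher; blue, called lower; grey, not called), with a black bar at the list's median. Acute phase and chemokine genes spread far to the left, while mitosis and ribosome assembly genes spread less, with some members below 0 and medians of 0.45 and 0.16.

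Of genes for ribosome assembly and ribosomal RNA processing 33 of 110 rose and 1 fell (median 0.16). *Nop58*, a box C/D snoRNP protein, was at 383, 361, 373 and 397 in BSA and 557, 447, 549.7 and 543 in PAL (0.47, SE 0.09, *Padj* = 1.83e-05). *Noc3l* (0.62, SE 0.17), *Utp20* (0.57, SE 0.11) and *Ncl* (0.33, SE 0.06) rose, and *Nop56* was not called (0.12, *Padj* = 0.552). Cytosolic ribosomal proteins rose in 26 of 84 and fell in 0, by little (median 0.10; 16 without BSA replicate 1). *Rplp0* changed by 0.27 (SE 0.05) and *Rps12* by 0.23 (SE 0.05), and such genes have many pseudogene copies. Initiation factors rose in 13 of 45 and fell in 1, with *Eif4e*, the cap-binding protein, at 0.40 (SE 0.09) and *Eif2s1* at 0.32 (SE 0.08). Of the elongation and release factors 5 of 12 rose, and of aminoacyl-tRNA synthetases 1 of 20. Spliceosome and hnRNP genes rose in 22 of 60 and fell in 0 (median 0.15; 13 without BSA replicate 1), with *Srsf1* at 0.42 (SE 0.08). Nuclear transport genes rose in 9 of 46, with *Ipo5* at 0.38 (SE 0.07) and *Kpnb1*, importin beta, at 0.30 (SE 0.05). Nucleotide and polyamine synthesis genes rose in 12 of 32 and fell in 2 (7 rises without BSA replicate 3 and 6 without PAL replicate 1), among them *Odc1*, ornithine decarboxylase (0.62, SE 0.11), and *Pfas* (0.78, SE 0.19).

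Protein folding and degradation genes rose in part. The chaperonin CCT and prefoldin list had 7 rises in 14, led in significance by *Cct8* (0.23, SE 0.05, *Padj* = 0.000201), but 3 or 4 rises after leaving out any library other than BSA replicate 4. Proteasome subunits rose in 7 of 35, with *Psmd14* at 0.25 (SE 0.06) and *Psmc4* at 0.26 (SE 0.08). That count was 3 without BSA replicate 1 or PAL replicate 3 and 4 without BSA replicate 2. Of cytosolic heat shock genes 8 of 32 rose (3 without BSA replicate 2 and 5 without PAL replicate 4) and 3 fell (1 without PAL replicate 4). *Hsp90ab1*, the constitutive cytosolic HSP90, was at 12167, 13047, 12781 and 13708 in BSA and 15907, 15880.3, 16194 and 15461 in PAL (0.30, SE 0.05, *Padj* = 6.80e-08). The stress-induced *Hspa1b* (-0.15, *Padj* = 0.703), *Hsph1* (0.09, *Padj* = 0.654) and *Dnajb1* (0.04, *Padj* = 0.860) were not called.

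Lysosome genes fell in 20 of 46 tested and rose in 0 (median -0.26). *Ctsc*, cathepsin C, was at 1464, 1416, 1581 and 1578 in BSA and 869, 843, 754 and 789.9 in PAL (-0.89, SE 0.07, *Padj* = 2.00e-34). *Ctsz* (-0.65, SE 0.07) and *Ctsb* (-0.46, SE 0.05) fell, while *Ctsd* (-0.01, *Padj* = 0.957), *Ctsl* (-0.11, *Padj* = 0.220) and the membrane protein *Lamp1* (0.02, *Padj* = 0.898) were not called. Subunits of the V-ATPase, which acidifies lysosomes, fell in 5 of 18 and rose in 1, with *Atp6v1e1* at -0.32 (SE 0.05). Of autophagy genes 4 of 38 fell (2 without BSA replicate 1 or PAL replicate 3), with *Gabarapl1* at -0.60 (SE 0.16) and the lysosome regulator *Tfe3* at -0.36 (SE 0.10). *Sqstm1* (-0.09, *Padj* = 0.400) and *Map1lc3b* (-0.13, *Padj* = 0.342) were not called.

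Palmitate is known to stress the endoplasmic reticulum, and genes of the response to that stress were examined. Of ER chaperones and genes of the unfolded protein response 4 of 42 rose and 3 fell (median 0.01). The rises were 1 without BSA replicates 1 or 2 or PAL replicate 3 and 2 without PAL replicate 2, and the falls 5 without PAL replicate 4. *Ddit3* (CHOP) was at 120.1, 132, 141 and 122 in BSA and 122, 155, 139 and 121 in PAL (0.06, SE 0.15, *Padj* = 0.892), and the groups overlapped. Another annotated entry of the same name overlaps *Ddit3* on the same strand, and how reads shared by them were counted is not known. The log2 fold changes were 0.02 (SE 0.07, *Padj* = 0.931) for the chaperone *Hspa5* (BiP), -0.04 (SE 0.06, *Padj* = 0.793) for *Atf4*, 0.11 (SE 0.11, *Padj* = 0.649) for *Trib3* and 0.01 (SE 0.08, *Padj* = 0.966) for *Asns*, none of them called. *Xbp1*, the factor of the IRE1 branch, fell from 2893 ± 110.0 to 2053 ± 194 (-0.49, SE 0.07, *Padj* = 1.68e-11). *Herpud1*, of degradation at the reticulum, fell with overlap (-0.41, SE 0.12, *Padj* = 0.00788). The rises were small, with *Ssr3*, of the translocon-associated complex, at 0.21 (SE 0.06), *Ssr1* at 0.19, *Selenos* at 0.18 and the chaperone *Hsp90b1* at 0.16. The calls of *Ssr1*, *Selenos* and *Hsp90b1* were lost in 7, 8 and 8 of the 15 alternatives. Of ATF4 targets 5 of 32 rose and 5 fell. The rises were 3 without BSA replicate 4 or PAL replicate 1. Serine synthesis genes *Psph* (0.41, SE 0.09) and *Phgdh* (0.23, SE 0.06) rose, and *Nupr1* (-0.77, SE 0.16) and *Gpt2* (-0.44, SE 0.09) fell.

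Of NRF2 targets and glutathione genes 14 of 42 fell and 3 rose. The 5 glutathione transferases among the falls are also in the conjugation list. *Fth1*, ferritin heavy chain (-0.33, SE 0.04), and *Gclm*, of glutathione synthesis (-0.27, SE 0.06) fell, and glutathione reductase *Gsr* (0.27, SE 0.06) rose. *Nfe2l2*, which encodes NRF2 (0.02, *Padj* = 0.913), and its target *Txnrd1* (0.10, *Padj* = 0.446) were not called, and *Hmox1* had at most 3 raw counts in any library. Of p53 targets 6 of 29 rose and 3 fell: *Ccng1* (0.77, SE 0.07, *Padj* = 3.46e-26) and *Mdm2* (0.45, SE 0.07) rose, while the death genes *Pmaip1* (-0.62, SE 0.13) and *Fas* (-0.46, SE 0.11) fell. In the list of BCL2 family and death genes 6 of 29 fell, among them the BH3 gene *Bmf* (-0.59, SE 0.08), and 2 rose. These were the initiator caspase *Casp8* (0.33, SE 0.12) and *Bcl2l1*, which encodes BCL-XL (0.17, SE 0.07), with calls lost in 4 and 9 of the 15 alternatives. The rises were 0 without BSA replicates 2 or 3 or PAL replicate 3 and 1 without BSA replicate 4 or PAL replicates 1 or 2. *Cdkn1a*, p21, was not called (0.15, *Padj* = 0.277).

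Transcripts of the mitochondrial genome fell in 4 of 8 tested and rose in 0 (median -0.16), with *mt-Rnr2*, the large ribosomal RNA, at -0.31 (SE 0.06) and *mt-Cytb* at -0.24 (SE 0.05). The deposited table holds 0 counts in all 8 libraries for *mt-Co2*, *mt-Co3*, *mt-Atp6*, *mt-Atp8*, *mt-Nd3* and *mt-Nd4l*, so that this list and the mitochondrial share of counts given above rest on the other transcripts. None of the 4 was called with all 24 libraries in 1 fit. For nuclear genes of the respiratory chain the median log2 fold changes were 0.02 for 37 complex I subunits, 0.02 for 23 subunits of complexes III and IV and 0.03 for 17 ATP synthase subunits. *Ndufa6* of complex I fell (-0.20, SE 0.06) and *Atp5b* of the ATP synthase rose (0.18, SE 0.05). Mitochondrial ribosomal proteins rose in 8 of 78 (median 0.12), but in 4 without BSA replicate 1 and in 5 without BSA replicate 4 or PAL replicate 1. Glycolysis had 2 rises and 2 falls in 26, with *Ldha* at 0.21 (SE 0.05). *H6pd*, which makes NADPH inside the endoplasmic reticulum, was at 1685, 1729, 1675 and 1590.2 in BSA and 1036, 951, 1043 and 936 in PAL (-0.76, SE 0.06, *Padj* = 3.16e-29), while the cytosolic *G6pdx* was not called (-0.27, *Padj* = 0.125).

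Among genes with a mean of at least 50 normalized counts, the 4 largest rises were *Areg*, *Krt20*, *Emp1* and *Fosl1*. *Areg*, amphiregulin, an EGF receptor ligand (chromosome 5, 91139599 to 91148432), was at 39.8, 34.6, 33.2 and 27.4 in BSA and 118, 109, 92.3 and 86.2 in PAL. *Hbegf* (274 ± 13.4 to 392 ± 27.2; 0.51, SE 0.10, *Padj* = 7.40e-06), *Nrg1* (0.34, SE 0.08) and the receptor *Egfr* (0.28, SE 0.06) rose, and the receptor's inhibitor *Errfi1* fell (-0.26, SE 0.08). In all 5 of 12 members rose and 1 fell (median 0.31). ERK signalling induces its own phosphatases and Sprouty inhibitors together with *Fosl1* and ETS factors. Several of these genes rose and immediate early genes fell, and a part of ERK signalling in these results was not tested. *Fosl1*, FRA1 (chromosome 19, 5447547 to 5455946), was at 91.1, 83.1, 82.2 and 72.6 in BSA and 233, 205, 222 and 163 in PAL (1.31, SE 0.16, *Padj* = 8.70e-15). *Dusp6* (0.55, SE 0.09) and *Spry2* (0.76, SE 0.16) rose. *Etv4* was at 13.3, 8.41, 11.4 and 5.48 in BSA and 35.9, 21.5, 38.03 and 27.97 in PAL (1.63, SE 0.39, *Padj* = 0.000727). Among immediate early genes *Egr1* was at 255, 297, 341 and 293 in BSA and 235, 220.1, 183 and 202 in PAL (-0.50, SE 0.12, *Padj* = 0.000767), *Fos* changed by -0.64 (SE 0.21, *Padj* = 0.0298), *Fosl2* by -0.36 (SE 0.08) and *Jun* by -0.29 (SE 0.09, *Padj* = 0.0137). Of 35 members of the list of immediate early and MAPK feedback genes, 10 rose and 4 fell (median 0.07). The call of *Fos* was lost in 2 and that of *Jun* in 1 of the 15 alternative settings.

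**Figure D5:**
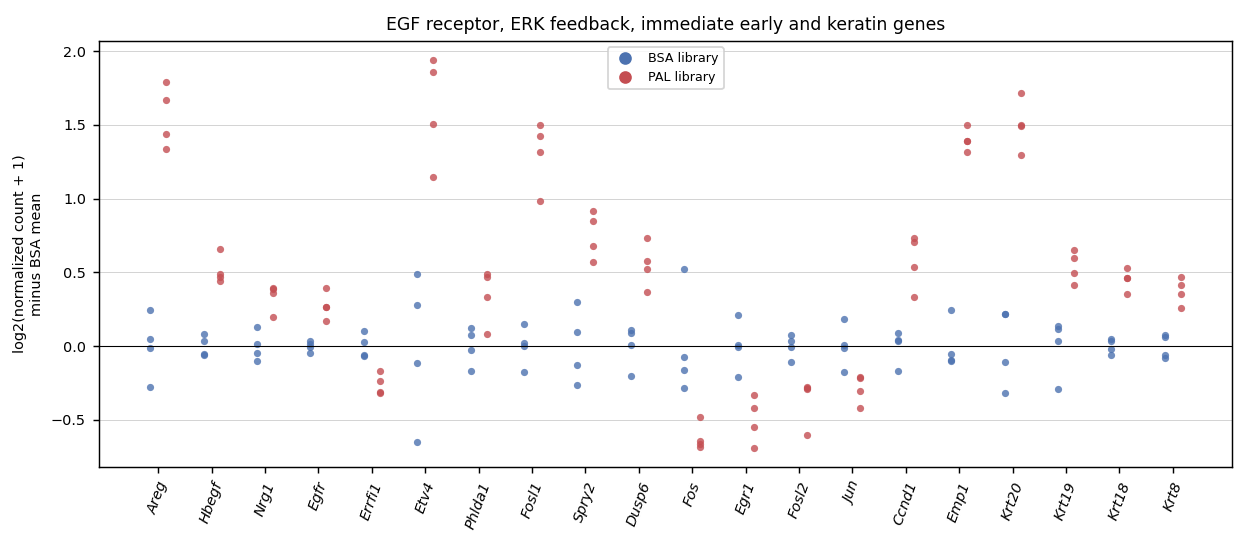
Log2(normalized count + 1) of each BSA (blue) and PAL (red) library minus the mean of the BSA libraries, for genes of the EGF receptor, ERK feedback, immediate early response, cyclin D1 and keratins. The PAL libraries of *Areg*, *Etv4*, *Fosl1*, *Emp1* and *Krt20* lie above all BSA libraries, and those of *Fos*, *Egr1*, *Fosl2* and *Jun* below them.

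Keratins and epithelial membrane proteins rose in 7 of 13 and fell in 0 (median 0.37). *Krt20*, an intermediate filament of gut epithelium (chromosome 11, 99428403 to 99438150), was at 82.8, 121, 96.1 and 121 in BSA and 294, 342, 296 and 255 in PAL. *Emp1* (chromosome 6, 135362545 to 135383173) was at 567, 587, 721 and 568 and 1598, 1514, 1719 and 1593. The hepatocyte keratins *Krt8* (0.37, SE 0.06) and *Krt18* (25150.1 ± 908 to 34411 ± 1667; 0.45, SE 0.05, *Padj* = 3.92e-17) and the duct keratin *Krt19* (0.53, SE 0.08) rose. Of the 8 cholangiocyte markers tested, 1 rose (*Krt19*) and 1 fell (*Spp1*, -0.48), with a median of 0.02. The 10 markers of that list summed to 2690.1 to 2852 CPM in BSA and 2339.7 to 2447 CPM in PAL, and their part in these results was not tested. *Cdh1*, E-cadherin, was not called (-0.30, *Padj* = 0.283), and junction genes fell in 6 of 19 and rose in 1, with desmoplakin *Dsp* at -0.37 (SE 0.07) and connexin *Gjb1* at -0.57 (SE 0.15). Actin and contractility genes rose in 19 of 53 and fell in 4 (median 0.14; 2 falls without BSA replicate 2). *Actb* (0.33, SE 0.05), *S100a6* (0.55, SE 0.07), *Cnn1* (0.47, SE 0.13) and *Cnn2* (0.40, SE 0.07) rose, and *Arpc1b* fell (-0.80, SE 0.08). Tubulins and their partners rose in 6 of 23 and fell in 2 (1 without BSA replicates 1, 2 or 4 or PAL replicate 2), with *Tubb4b* at 0.52 (SE 0.06) and *Tubb2a*, which fell, at -0.60 (SE 0.10).

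Collagens fell in 4 of 16 and rose in 1 (2 without BSA replicate 4), the falls being *Col4a5* (-0.59, SE 0.14), *Col4a2* (-0.33, SE 0.08), *Col4a1* (-0.27, SE 0.07) and *Col18a1* (-0.26, SE 0.07), all of basement membranes. Fibronectin, *Fn1*, changed by -0.26 (SE 0.06) and osteopontin, *Spp1*, by -0.48 (SE 0.05), while nidogen, *Nid1*, rose (0.71, SE 0.15). The integrin chain *Itga3*, a laminin receptor, rose from 1395 ± 205 to 2146 ± 197 (0.62, SE 0.09), and the collagen-binding *Itga1* fell from 688 ± 66.4 to 372 ± 29.8 (-0.89, SE 0.09; SD, n = 4). Of the TGF-beta list 6 of 25 rose and 5 fell. The rises were 3 without BSA replicate 2 and the falls 3 without BSA replicates 1 or 4 or PAL replicates 1, 3 or 4. The ligand *Tgfb1* fell (-0.65, SE 0.11). *Ccn2*, CTGF, a target of YAP and TGF-beta, was at 4958, 5236, 5241 and 5824 in BSA and 9066, 7318, 7671 and 7801 in PAL (0.58, SE 0.07, *Padj* = 2.38e-15), whereas *Ccn1* was not called (0.14, *Padj* = 0.104).

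Because the sources leave the medium of BSA cells open, glucocorticoid targets were read directly. *Fkbp5* was at 513, 462, 501 and 557 in BSA and 491, 517, 592 and 585 in PAL (0.11, SE 0.09, *Padj* = 0.538), and *Tsc22d3* (GILZ) at 346, 333, 339 and 368 and 328, 269, 313 and 311 (-0.18, SE 0.10, *Padj* = 0.269), neither of them called. *Per1* was not called (-0.64, SE 0.26, *Padj* = 0.104). *Sgk1* (-0.35, SE 0.10), *Mt1* (-0.35, SE 0.08) and *Klf9* (-0.34, SE 0.11) fell, and *Glul* rose (0.37, SE 0.09). In the list 7 of 15 fell and 1 rose (2 rises without BSA replicate 1), and 3 of the falls, *Cebpd*, *Mt1* and *Sult1a1*, belong to lists above as well. The call of *Klf9* was lost in 2 of the 15 alternative settings. The part of the medium in these results was not tested. Of clock genes 3 of 21 fell and 1 rose. The rise was of *Ciart*, a repressor of the clock, which was at 3.31, 0, 1.75 and 0 in BSA and 24.4, 4.89, 9.78 and 4.54 in PAL (*Padj* = 0.0142), with few counts and no call without PAL replicate 1. *Per2* (-0.42, SE 0.16, *Padj* = 0.0749) and *Per3* (-0.81, SE 0.27, *Padj* = 0.0247) fell with overlap between groups, with calls lost in 8 and 2 of the 15 alternatives. *Arntl*, *Clock*, *Dbp* and *Nr1d1* were not called (*Padj* = 0.930, 0.809, 0.220 and 0.820). Leaving out BSA replicate 4 ended all 3 falls, and 1 was left without BSA replicate 2 or PAL replicates 1 or 4.

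Solute carriers fell in 35 of 196 tested and rose in 7 (4 rises without BSA replicate 1 or 2). The ascorbate carrier *Slc23a2* (-1.32, SE 0.22) and the cystine carrier subunit *Slc3a1* (-0.91, SE 0.13) fell. *Slc4a11*, a membrane carrier of the bicarbonate transporter family (chromosome 2, 130684113 to 130697519), was at 37.3, 40.2, 51.6 and 47.9 in BSA and 101, 101, 111 and 74.1 in PAL (1.13, SE 0.21, *Padj* = 3.84e-06). *Abcb1a*, a P-glycoprotein gene, rose (37.7 ± 7.42 to 70.1 ± 5.44; 0.89, SE 0.23), within an ABC list of 4 rises (2 without BSA replicate 2) and 7 falls in 31. Further genes among the 12 largest rises or falls belong to other families. *Igfbp5*, an IGF-binding protein, was at 114, 119.6, 152 and 147 in BSA and 35.9, 20.5, 27.2 and 36.3 in PAL (-2.14, SE 0.22), whereas *Igfbp4* rose (0.32, SE 0.06). The epithelial ETS factor *Ehf* (-2.11, SE 0.25) and *Mme*, neprilysin (-1.91, SE 0.26), fell. *Acsbg1*, an acyl-CoA synthetase known from brain (0.93, SE 0.16), *Fam83d*, of the mitotic spindle (0.96, SE 0.21), and *Vgll3*, a TEAD cofactor (0.92, SE 0.20), rose.

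CON cells of the same series received 0.25 mM palmitate together with 200 nM of a control esiRNA, and their libraries were in rows A to D of another library column. With size factors of all 24 libraries, *Lcn2* was at 3336 to 6231 in BSA, 86.1 to 173 in PAL and 61.4 to 241 in CON, and *Cxcl5* at 9463 to 10684, 821 to 978 and 934 to 1052. *Emp1* was at 586 to 744 in BSA, 1556 to 1769 in PAL and 1576 to 1638 in CON, *Areg* at 28.3 to 41.1, 88.6 to 121 and 84.97 to 128, and *Sqle* at 418 to 560.2, 760.4 to 903 and 628 to 769.8. *Abca1* was at 24.05 to 59.96, 12.3 to 27.99 and 25.5 to 48.5, so that PAL and CON both overlapped BSA for this gene. These genes are examples, and the CON values of the other named genes are not given here. PAL and CON share the BSA libraries as their control, and CON differs from PAL in transfection, library column and library rows.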

How the data were processed

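The 8 libraries of untransfected AML-12 cells (4 BSA and 4 PAL) were taken from a table of raw counts that the authors deposited for 24 libraries. According to the study's methods, BRB-seq reads were demultiplexed and aligned to mm10, and the submitters' processing notes name STAR, HTSeq and featureCounts, without versions. Whether strand and molecular identifiers were used is not given in the sources used here, so counts of overlapping or near-identical genes (the Saa, Cxcl, Gst, Ugt, Acot and H2 families, ribosomal proteins with pseudogenes) are uncertain. Of 256 genes named here and placed on GENCODE M21 (GRCm38), 48 overlap another annotated gene on the same strand and 85 on the other. Rows that name no gene were left out of library sizes and tests.

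Genes were fitted where their counts over the 8 libraries added up to 25 or more, with DESeq2 1.42.0 (R 4.3.3) by the Wald test. Benjamini-Hochberg adjustment was over the genes kept by DESeq2's default filter on mean counts, with a threshold of 0.1. This is the design of the study's own analysis. Genes without a *Padj* were left out of all counts. Normalized counts are counts divided by DESeq2 size factors. Log2 fold changes are not shrunken. Total counts of 5399700 to 9714715 make 3 counts equal to 0.309 to 0.556 CPM, a floor that covers counting error only. Alternatives were edgeR 4.0.16 (quasi-likelihood test), TMM size factors, other count filters, a *Padj* of 0.05, the replicate number as a block, all 24 libraries in 1 fit and leaving out each library. The fitting was tested on simulated data.

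Genes were named by rule: the 12 largest rises and falls among called genes with a mean of at least 50 normalized counts and no overlap between groups, up to 4 called members a direction of each list with a mean of at least 20, and the members marked in the lists. *Apcs*, *Ccl9*, *Ccl20*, *Ciart*, *Cp*, *Csf1*, *Cxcl2*, *Fads1*, *Hpx*, *Il1b*, *Il6*, *Lbp* and *Tnf* were named after their values were seen. The libraries and gene lists were chosen with earlier results of these data known. Some genes that the rule names are not reported here.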

Additional observations from a re-analysis of the deposited data

Results flagged for a closer look

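Among 546 groups of 4 libraries examined (266 genes named above and 7 library measures, each in BSA and PAL), 19 held a library whose gap to its nearest neighbour exceeded Dixon's 95% critical value for 4 values, or 3.48%. Chance flags about 1 in 20 groups. Values below are normalized counts, with the range of the other 3 libraries.

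In PAL, *Cebpa* was at 109.0 in replicate 1 (64.6 to 68.4 in the others), *Per3* at 46.7 in replicate 3 (25.6 to 26.4), *Acer3* at 2479 in replicate 1 (2193 to 2212) and *Xbp1* at 2342 in replicate 2 (1923 to 1979). *Fosl2* was at 524 in PAL replicate 1 (652 to 659), *Nop58* at 447 in PAL replicate 2 (543 to 557) and *Cybb* at 21.5 in PAL replicate 2 (24.99 to 25.7). The share of ribosomal protein transcripts was 14.1% in PAL replicate 2 (13.4% to 13.5%).

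In BSA replicate 3, *Bcl3* was at 552 (489.5 to 497), *Emp1* at 721 (567 to 587), *Gabarapl1* at 161 (131 to 135) and *Hmgcs1* at 581 (510.1 to 521). In BSA replicate 1, *Vgll3* was at 112 (64.7 to 69.9), *Nsdhl* at 173 (141 to 142), *Npc1* at 212 (188 to 192) and *Psmd14* at 1182 (1133 to 1135). In BSA replicate 2, *Ipo5* was at 1003 (920.3 to 932), and in BSA replicate 4, *Pfas* at 68.5 (57.2 to 58.6) and *Ugt2b34* at 456 (399 to 404).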

How the results depend on the processing

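The replicate number in the labels was not shown to pair the libraries. The correlations of same-numbered BSA and PAL libraries after subtracting group means were 0.0035, 0.0603, 0.0484 and -0.0148, and BSA replicate 1 correlated more with PAL replicate 4 (0.0222). With the replicate number as a block, 539 genes were higher and 649 lower in PAL (1188 in all, 64.6% of the 1828 calls kept), and 27 were higher by at least 2 fold against 44 without the block.

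Without 1 library, 620 to 755 genes were higher and 735 to 849 lower, 1355 to 1602 in all. The lowest total was without BSA replicate 1 and the highest without PAL replicate 2. Under edgeR's quasi-likelihood test 1928 genes were called, and under the other filters, size factors, threshold and the fit of all 24 libraries 1413 to 1839. No gene called with the main settings changed sign under any of the 15 alternatives. For the genes selected by rule, 6567 values kept their side of the threshold, 583 lost it and 41 gained it. List counts stayed within 1.5 times in 2138 cases and moved further in 282. List medians moved by less than the spread between replicates in 1077 cases and by more in 133. Of the medians printed, those of fatty acid synthesis, complex I, complexes III and IV and the ER chaperones, all within 0.05 of 0, changed sign under at least 1 alternative. The depth limits what can be said of genes with few counts.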
